A study of Mus musculus with 4 samples.

Results

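Egr1, Egr2, Egr3, Fos, Fosb, Fosl2, Jun, Junb, Jund and Atf3 are transcription factor genes of the immediate early response, and all 10 were measured among the 18193 genes of the array. Every probe set whose only gene symbol was one of these names was taken, which gave 15 of 34945 named probe sets. The value used for a gene was that of its probe set with the highest mean over the 4 arrays. The arrays were 2 labelled Alox15-/- and 2 labelled WT, all of sorted bone marrow cells from C57BL/6 mice aged 8 weeks. The genotype Alox15-/- is named for a deletion of arachidonate 15-lipoxygenase. The sort was for c-Kit+ Sca-1+ cells negative for lineage markers, a gate that holds haematopoietic stem cells together with multipotent progenitors. The study compared the expression profile of these cells between the genotypes. The replicates are labelled biological, with nothing on separate animals or pooling. The p-values therefore reflect only how far these samples vary, and part of that may be technical.

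Immediate early genes are transcribed within minutes of a growth factor, cytokine or stress signal, without new protein synthesis. Kinases of the MAP kinase pathways act on serum response factor with its ternary complex factors, and on CREB and ATF proteins, which are already bound at these genes. The EGR proteins are zinc finger factors that bind GC-rich sites. FOS proteins bind DNA as dimers with JUN proteins, together called AP-1, and ATF3 is a stress-induced factor of the same basic leucine zipper class. In mouse stem cells Egr1 is known for its part in quiescence and in retention in the bone marrow, and loss of Junb in mice is known to lead to myeloid expansion.

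Upstream sequences are shown for the members whose stretch just before the transcription start holds one of the searched elements. These elements are sequences that serum response factor and the CREB, ATF, AP-1 and EGR proteins are known to bind. Sequences are from RefSeq, build GRCm38.p6, 5′ to 3′ on the gene's strand, and end at the base before the start. Capitals mark a CArG box (the serum response factor site) and ACGTCA (the core of the CRE, which CREB and ATF proteins bind) in Egr2, and the same CRE core in Fos and Atf3. In Fos it lies on the other strand. In Jun they mark TGACATCA, the AP-1 site of that promoter, and in Fosb and Fosl2 the EGR site GCGNGGGCG.
Egr2, chr10:67537769-67537868, plus strand: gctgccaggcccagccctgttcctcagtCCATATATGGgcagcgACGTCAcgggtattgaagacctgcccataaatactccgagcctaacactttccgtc
Fos, chr12:85473790-85473889, plus strand: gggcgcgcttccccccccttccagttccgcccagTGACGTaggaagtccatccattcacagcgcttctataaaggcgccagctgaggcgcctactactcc
Atf3, chr1:191183334-191183433, minus strand: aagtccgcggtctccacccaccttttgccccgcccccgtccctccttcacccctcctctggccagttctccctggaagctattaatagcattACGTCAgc
Jun, chr4:95052223-95052322, minus strand: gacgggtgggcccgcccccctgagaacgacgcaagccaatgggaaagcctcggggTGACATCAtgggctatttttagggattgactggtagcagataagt
Fosb, chr7:19310046-19310145, minus strand: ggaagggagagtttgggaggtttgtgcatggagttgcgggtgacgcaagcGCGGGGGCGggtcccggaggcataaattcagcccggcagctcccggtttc
Fosl2, chr5:32136372-32136471, plus strand: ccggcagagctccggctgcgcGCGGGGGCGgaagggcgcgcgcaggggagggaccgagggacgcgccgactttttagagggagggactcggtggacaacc

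The search covered the 250 bases before each start on both strands. For the members, the search left out chromosome 18, where Egr1 lies. Windows of 8 of the 10 members were searched, and Egr1 and Egr3 are named only. Members were counted by gene, with a match in any of their windows (12 in all), while the shares are of single windows. The CArG box was found for 1 of the 8 and in 1.47% of 32851 windows of that length. The CRE core was found for 3 of the 8 and in 6.47% of windows, TGACATCA for 1 and in 2.93%, and the EGR site for 2 and in 4.7%. The general AP-1 site TGANTCA was found for 0 of the 8 and in 6.75% of windows. No 2 of these matches overlapped. A match describes the letters only. Junb and Jund had no match in their windows.

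Alox15 itself read 10.68 and 10.75 on the arrays labelled Alox15-/-, against 4.63 and 4.35 on the WT arrays, on the log2 scale of the deposited values. This goes against the label. In the WT arrays the probe set was not above the highest of 27 probe sets for Bacillus subtilis transcripts, which served as the background level. The level was at least 53.5-fold higher on the arrays labelled Alox15-/- (limma adjusted p = 0.00131). Where the deletion lies relative to this probe set is not known here, so the probe set may check nothing about it. Every direction below is that of the arrays as labelled. Of 10 measured gate and stem cell markers, 10 were above background on all arrays, among them Kit, beside 71.5% of all genes. Markers of other cells were in part above background on all arrays, which such a share over all genes makes hard to read. The counts were 13 of 15 for granulocytes and monocytes and 5 of 8 for mast cells, basophils and eosinophils. For B cells 6 of 8 were above it, for T and NK cells 4 of 8, for erythroid cells 6 of 7 and for endothelium and stroma 6 of 10. Vpreb1, Cd247, Alas2 and Pecam1 were among these. Not above it on any array were Ms4a1 (B cells), Cd3e and Cd3g (T cells) and Hba-a1 (erythroid cells). The same held for Fcer1a and Mcpt4 (mast cells, basophils and eosinophils), and for Cdh5 and Col1a2 (endothelium and stroma). Between arrays of different groups Pearson's r over probe sets was 0.986 to 0.988, and within groups it was 0.988 and 0.990. Probe sets are no independent replicates.

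Of the EGR factors, Egr1 was lower in the arrays labelled Alox15-/- by 1.34 as a mean difference, and Egr3 overlapped between the groups. Egr1 read 7.24 and 6.76 on the arrays labelled Alox15-/-, against 8.33 and 8.34 on the WT arrays. The groups did not overlap, the WT arrays were almost equal, and Alox15-/- replicate 2 was the lowest. In bulk samples fewer cells of a type that express a gene and less of its RNA per cell cannot be told apart. The mean was 7.0 ± 0.34 on the arrays labelled Alox15-/- and 8.34 ± 0.01 on the WT arrays (SD, n = 2 each), and the difference was -1.34 ± 0.19 (SE), a level 2.52-fold lower in the arrays labelled Alox15-/-. The 95% interval of the difference was -1.82 to -0.85. Across all genes limma gave it an adjusted p = 0.367, which did not pass the threshold of 0.05 (unadjusted p = 0.000705). Among 18193 genes it ranked 33 by p, and 26 genes, itself included, had a difference at least as negative. The exact two-sided permutation p was 0.333, the smallest that 2 against 2 arrays allow.

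Egr3, which acts with Egr2 in lymphocyte and neural programmes, read 6.97 and 7.10 on the arrays labelled Alox15-/-, against 7.0025 and 6.98 on the WT arrays. The groups overlapped, and the difference was 0.04 ± 0.13 (SE) with an interval of -0.29 to 0.37. That interval lies wholly above the Egr1 difference. A further probe set of Egr3 stayed at 1.98 to 2.50, under the background level on every array. Egr2 read 4.005 and 3.51 on the arrays labelled Alox15-/-, against 3.63 and 4.02 on the WT arrays. Neither of its 2 probe sets was above background on any array, so a difference of Egr2 was not detectable here.

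**Figure D1:**
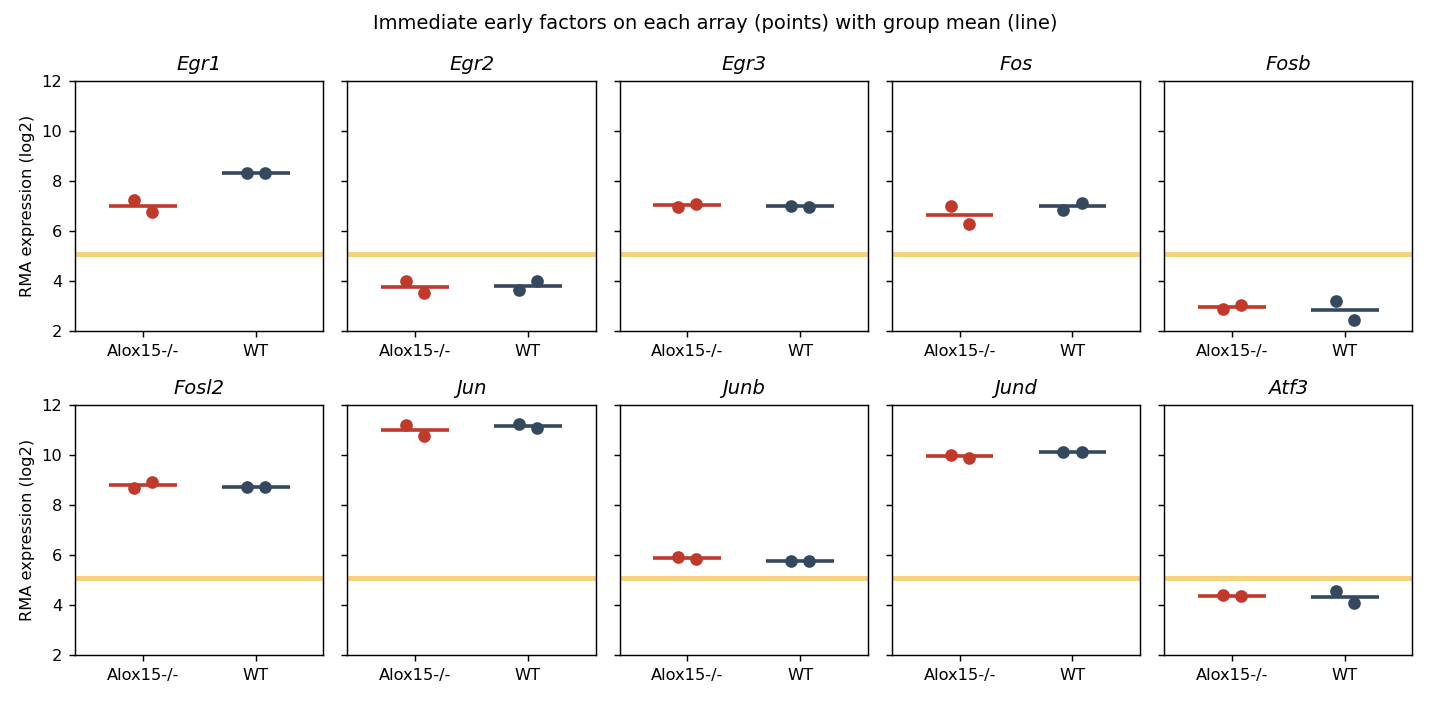
RMA expression on the log2 scale (vertical axis) of the 10 genes on each array, with the arrays labelled Alox15-/- (red) left of WT (dark blue). Points are arrays, short lines are group means and the yellow band is the range of the highest control over the arrays. Egr1 is the gene whose groups stand apart by more than 1 unit, and Egr2, Fosb and Atf3 lie under the band.

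Of the FOS subfamily, Fos and Fosl2 were above background and neither differed beyond its spread. Fos, the founding partner of JUN in AP-1, read 7.01 and 6.27 on the arrays labelled Alox15-/-, against 6.86 and 7.11 on the WT arrays. Alox15-/- replicate 2 was again the lowest, while replicate 1 lay between the WT arrays. The difference was -0.35 ± 0.27 (SE, 95% interval -1.03 to 0.33, limma adjusted p = 0.790). It rested on 1 array, being 0.02 without Alox15-/- replicate 2 and -0.72 without Alox15-/- replicate 1. The interval is wide enough to hold a 2-fold lower level of Fos.

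Fosl2, which encodes FRA-2, read 8.68 and 8.90 on the arrays labelled Alox15-/-, against 8.70 and 8.70 on the WT arrays. The groups overlapped, with a difference of 0.08 ± 0.14 (SE, interval -0.27 to 0.44). Its dimmer probe set gave another picture, with 5.12 and 5.54 on the arrays labelled Alox15-/-, against 5.78 and 6.96 on the WT arrays. Here the groups did not overlap and the difference was -1.04 ± 0.41 (SE, adjusted p = 0.645 by limma over all 34945 named probe sets). The WT arrays were 1.18 apart at this probe set, and Alox15-/- replicate 1 was under the background level. Fosb, a FOS relative that also dimerises with JUN proteins, read 2.89 and 3.03 on the arrays labelled Alox15-/-, against 3.21 and 2.45 on the WT arrays, all under that level.

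Of the JUN subfamily, Jun, Junb and Jund were above background on all arrays, and their differences were small. Jun, the main AP-1 partner of FOS, read 11.20 and 10.77 on the arrays labelled Alox15-/-, against 11.24 and 11.06 on the WT arrays. The groups overlapped and the difference was -0.17 ± 0.19 (SE, interval -0.65 to 0.31). The dimmer Jun probe set read 8.25 and 7.80 on the arrays labelled Alox15-/-, against 7.48 and 7.71 on the WT arrays. It ran the other way, at 0.43 ± 0.20 (SE, interval -0.09 to 0.94), with groups that did not overlap. On both probe sets Alox15-/- replicate 2 was below Alox15-/- replicate 1, by 0.43 and 0.44.

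Junb, the JUN protein that restrains myeloid growth in mice, read 5.92 and 5.85 on the arrays labelled Alox15-/-, against 5.77 and 5.76 on the WT arrays. The groups did not overlap, with a difference of 0.12 ± 0.13 (SE, interval -0.20 to 0.44, limma adjusted p = 0.850). Jund, which unlike its relatives is expressed steadily in most resting cells, read 10.0025 and 9.86 on the arrays labelled Alox15-/-, against 10.09 and 10.12 on the WT arrays. These groups did not overlap either, and the difference was -0.17 ± 0.13 (SE, interval -0.51 to 0.16, limma adjusted p = 0.788). The dimmer Jund probe set gave 0.20, with groups that overlapped. Atf3, a repressor induced by stress, read 4.39 and 4.34 on the arrays labelled Alox15-/-, against 4.56 and 4.06 on the WT arrays, under the background level throughout.

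By limma over all genes, 0 of the 10 members passed the adjusted threshold, and 0.0055% of all genes did, which is Alox15 alone. At an unadjusted p under 0.05 there was 1 member, Egr1, beside 7.77% of all genes (3.57% lower and 4.2% higher in the arrays labelled Alox15-/-). Groups did not overlap for 3 members, against 38.5% of all genes. Of these, 2 members were lower in the arrays labelled Alox15-/- (Egr1 and Jund), against 17.1% of all genes, and 1 was higher (Junb), against 21.4%. With 10 members, these shares are near the background. Signs split evenly, with 5 members positive and 5 negative, against 53.8% and 46.2% of all genes, and the median difference was -0.01, against 0.02 over all genes. Above background on all arrays were 7 members, and 71.5% of all genes. Apart from Egr1, the members' differences ran from -0.35 to 0.13 and their limma adjusted p from 0.788 to 0.965. For the 6 others above background the 95% intervals reached from -1.03 (Fos) to 0.44 (Fosl2). No test of Egr1 against the other members was run. Relative to each gene's own mean, Egr1 stood at -0.43 and -0.90 on the arrays labelled Alox15-/-, against 0.66 and 0.67 on the WT arrays. The mean of the 6 others stood at 0.05 and -0.12 on the arrays labelled Alox15-/-, against 0.03 and 0.04 on the WT arrays. Of the 5 members with 2 probe sets, 3 (Fosl2, Jun and Jund) had probe sets of opposite sign. Egr1 had 1 probe set, so its difference could not be set beside that of another.

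**Figure D2:**
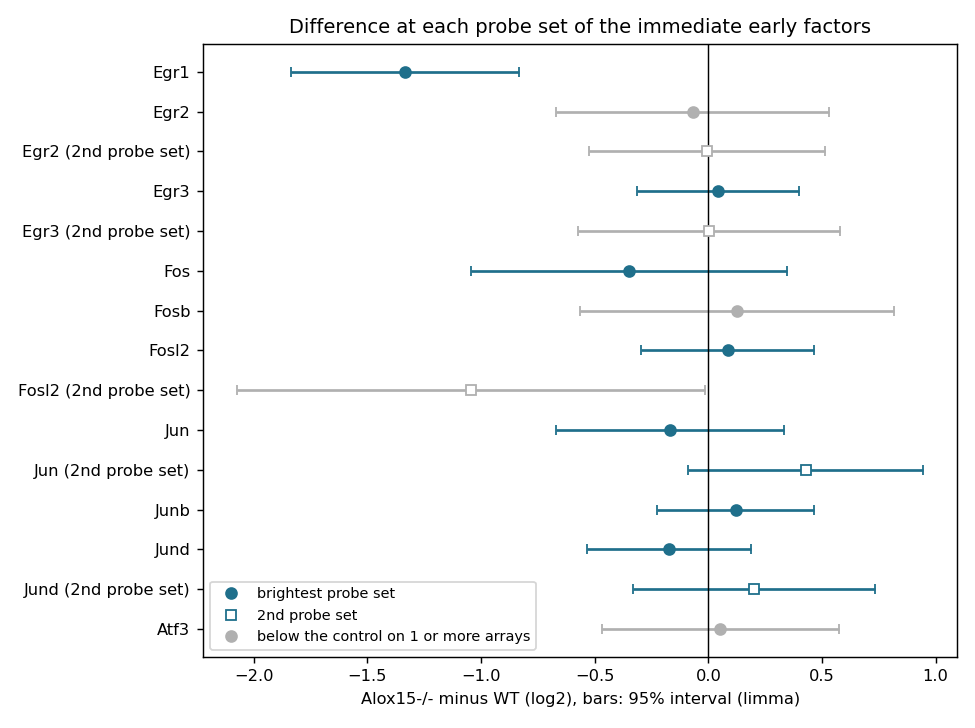
Difference between the arrays labelled Alox15-/- and WT on the log2 scale (horizontal axis) for each of the 15 probe sets, with bars for the 95% interval from limma over all named probe sets. Filled circles are the brightest probe set of a gene, open squares the dimmer one, and grey marks probe sets under the highest control on 1 or more arrays. The intervals of Egr1 and of the dimmer Fosl2 probe set exclude 0, and the open squares of Jun and Jund lie across 0 from their circles.

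The genes around these factors were described from lists of their relatives, regulators and response partners. None of them passed the adjusted threshold in either direction by limma. At an unadjusted p under 0.05 by limma stood 7.77% of all genes. Of 18 measured AP-1 and ATF partners these were Crem (lower in the arrays labelled Alox15-/-) and Maf (higher). Of 40 other immediate early response genes they were Gem and Dusp4 (both lower). Rps6ka3 was the 1 of 14 MAP kinase genes and Cdkn1a the 1 of 19 genes linked to Egr1 or AP-1 (both higher). Of 11 heat shock and stress genes they were Hspa1a and Hspa1b (both higher). None was an EGR relative, serum response factor or a cofactor of it. Of the closest relatives, Egr4 read 6.09 and 6.12 on the arrays labelled Alox15-/-, against 6.38 and 6.40 on the WT arrays, a difference of -0.28 ± 0.13 (SE) without overlap. Nab1 and Nab2, corepressors that bind EGR proteins, overlapped between groups and differed by -0.05 and -0.03, while 2 dimmer Nab1 probe sets gave 0.25 and 1.36. Among 18 measured AP-1 and ATF partners, 4 were lower without overlap (22.2%, against 17.1% of all genes) and 1 was higher (5.56%, against 21.4%), with a median difference of -0.09. Crem, a cAMP-responsive factor with activator and repressor forms, read 5.98 and 6.29 on the arrays labelled Alox15-/-, against 6.81 and 7.37 on the WT arrays. Its difference was -0.95 ± 0.23 (SE, limma adjusted p = 0.570), and 3 dimmer probe sets gave -0.21 to -0.09. Maf, a large MAF factor, was at 0.64 ± 0.13 (SE) on its brightest probe set and between -1.26 and 0.17 on 5 others. Creb3 was at -0.28 on its brightest probe set and between -0.01 and 0.18 on 3 others. Mafk, a small MAF protein, was at -0.24.

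Upstream, serum response factor (Srf) read 10.13 and 9.97 on the arrays labelled Alox15-/-, against 10.02 and 10.22 on the WT arrays, which overlapped. Of 7 genes of this factor and its cofactors, 2 were lower without overlap (28.6%, against 17.1% of all genes), Elk1 at -0.31 and Elk3 at -0.13. The 1 that was higher (14.3%, against 21.4%) was Myocd, which was under the background level. Elk1 ran from -0.51 to -0.11 when 1 array was left out. Of 14 measured MAP kinase genes (22 were listed), 4 were lower without overlap (28.6%, against 17.1% of all genes) and 3 were higher (21.4%, as over all genes), with a median of -0.04. Mapk8, which encodes the JUN kinase JNK1, differed by -0.31 on its brightest probe set and by -1.31 to 0.25 on 4 others. Map2k1, which encodes the ERK-activating kinase MEK1, differed by -0.26. Map2k4, a JNK-activating kinase gene, differed by 0.32, and Rps6ka3, the ERK-dependent kinase gene RSK2, by 0.57 ± 0.15 (SE), with 0.27 and 0.34 on its other probe sets.

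Of 40 other immediate early response genes, 14 were lower without overlap (35%, against 17.1% of all genes) and 8 were higher (20%, against 21.4%), with a median difference of 0.03. No test of that share was run. Gem, a small GTPase gene, read 7.10 and 6.97 on the arrays labelled Alox15-/-, against 7.69 and 7.64 on the WT arrays. The difference was -0.63 ± 0.13 (SE, limma adjusted p = 0.502). Dusp4, a phosphatase that switches off MAP kinases, differed by -0.65 ± 0.18 (SE). Btg2, an antiproliferative gene, differed by -0.43, with 0.26 on its other probe set. Socs3, the cytokine feedback gene, differed by 0.54 and ran from 0.16 to 0.92 when 1 array was left out.

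Of 19 measured genes linked to Egr1 loss in stem cells or to EGR1 and AP-1 binding, 7 were higher without overlap (36.8%, against 21.4% of all genes) and 1 was lower (5.26%, against 17.1%), with a median of 0.10. Cdkn1a, which encodes the cell cycle inhibitor p21, read 9.27 and 8.97 on the arrays labelled Alox15-/-, against 8.34 and 7.82 on the WT arrays. Its difference was 1.04 ± 0.22 (SE, limma adjusted p = 0.502), and the dimmer probe set gave 0.33. Bmi1, a Polycomb gene of stem cell self-renewal named after its value was seen, overlapped between groups and differed by -0.10. Hmox1, which encodes heme oxygenase, differed by 0.50 and ran from 0.27 to 0.73 when 1 array was left out. Mmp14, a membrane protease gene, differed by 0.30 and Tgfb1, which encodes TGF-beta 1, by 0.24.

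**Figure D3:**
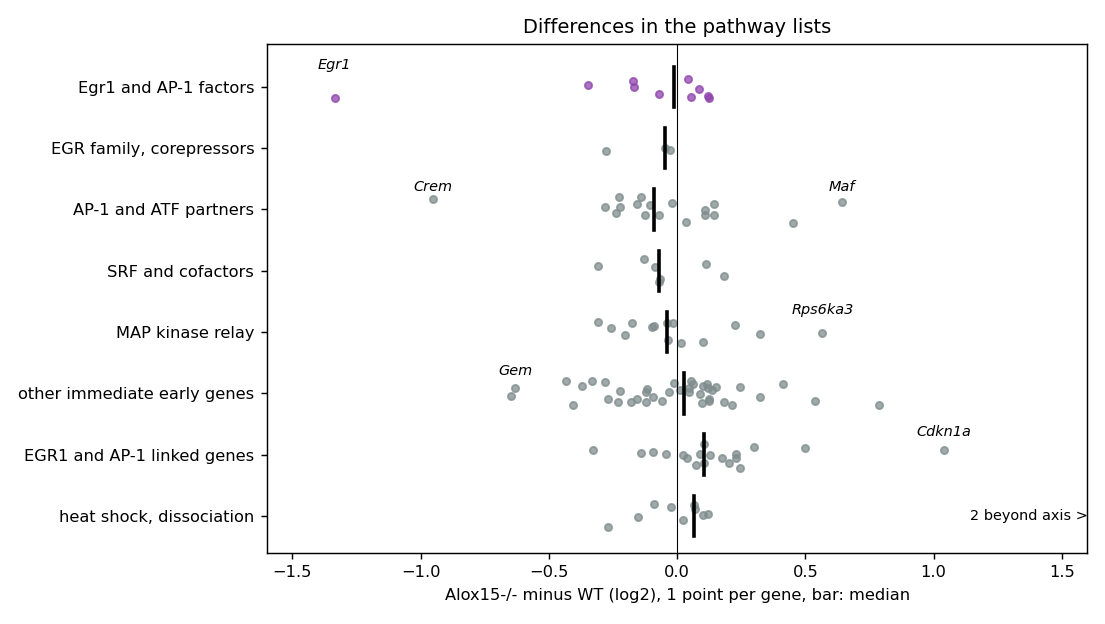
Difference between the arrays labelled Alox15-/- and WT on the log2 scale (horizontal axis) for each gene of the lists (points, spread vertically at random), with the list median as a black bar. The medians lie between -0.09 and 0.10, Egr1 is the lowest point of the plot, and 2 heat shock genes lie beyond the right edge.

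Heat shock and tissue dissociation stress genes, which are often read together with Fos, Jun and Egr1, showed 5 of 11 higher without overlap (45.5%, against 21.4% of all genes) and 2 lower (18.2%, against 17.1%), with a median of 0.07. Hspa1b and Hspa1a, inducible HSP70 genes with near-identical sequence whose signals may not be separable, were higher in the arrays labelled Alox15-/- without passing the adjusted threshold (limma adjusted p = 0.257 for each). Hspa1a was not above background on either WT array, and against that level it was at least 5.26-fold higher. Hspa1b read 10.19 and 9.92 on the arrays labelled Alox15-/-, against 4.08 and 5.53 on the WT arrays, where 1 of 2 was above background. Hspa8, Dnajb1 and Hspa5, other chaperone genes named after their values were seen, overlapped between groups at their brightest probe sets, at 0.02, 0.07 and -0.02. A dimmer probe set of Hspa8 gave 1.08 and one of Dnajb1 gave 0.52, both higher without overlap. Hsph1 differed by -0.27 and Hsp90aa1 by 0.12. The part of these genes in the Egr1 difference was not tested.

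Markers of granulocytes and monocytes and of mast cells, basophils and eosinophils were mostly higher in the arrays labelled Alox15-/-. Median differences of the others were 0.13 (B cells), 0.035 (T and NK cells), -0.08 (erythroid cells) and 0.08 (endothelium and stroma). Higher without overlap were 37.5%, 50%, 14.3% and 30% of these lists in that order, against 21.4% of all genes. Lower were 12.5%, 12.5%, 0% and 10%, against 17.1%. Granulocyte and monocyte markers were higher in 14 of 15 genes (53.8% of all genes were). Of the 15, 11 were higher without overlap (73.3%, against 21.4% of all genes) and 1 was lower (6.67%, against 17.1%), with a mean level of 8.17 and 8.12 on the arrays labelled Alox15-/-, against 6.95 and 7.51 on the WT arrays. For mast cells, basophils and eosinophils 8 of 8 markers were higher, 5 without overlap (62.5%, against 21.4% of all genes), with a mean level of 6.02 and 6.06 on the arrays labelled Alox15-/-, against 5.73 and 5.15 on the WT arrays. Of those 5, Fcer1a and Mcpt4 were not above background on any array, and Prg2 only on Alox15-/- replicate 1. Gate and stem cell markers were lower in 6 of 10 (46.2% of all genes were). Of the 10, 4 were lower without overlap (40%, against 17.1% of all genes) and 2 were higher (20%, against 21.4%). Their mean level was 10.41 and 10.39 on the arrays labelled Alox15-/-, against 10.53 and 10.47 on the WT arrays. Between the WT arrays the granulocyte and monocyte mean differed by 0.56 and Egr1 by 0.01. Between the arrays labelled Alox15-/- that mean differed by 0.05 and Egr1 by 0.475. Control probe sets at the ends of the Gapdh transcript differed by 2.14 and 2.17 on the arrays labelled Alox15-/-, against 2.37 and 2.39 on the WT arrays, a group gap of -0.23, which for Actb was 0.01. How such a gap reads depends on the labelling, which is unsettled here. The part of these in the Egr1 difference was not tested.

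**Figure D4:**
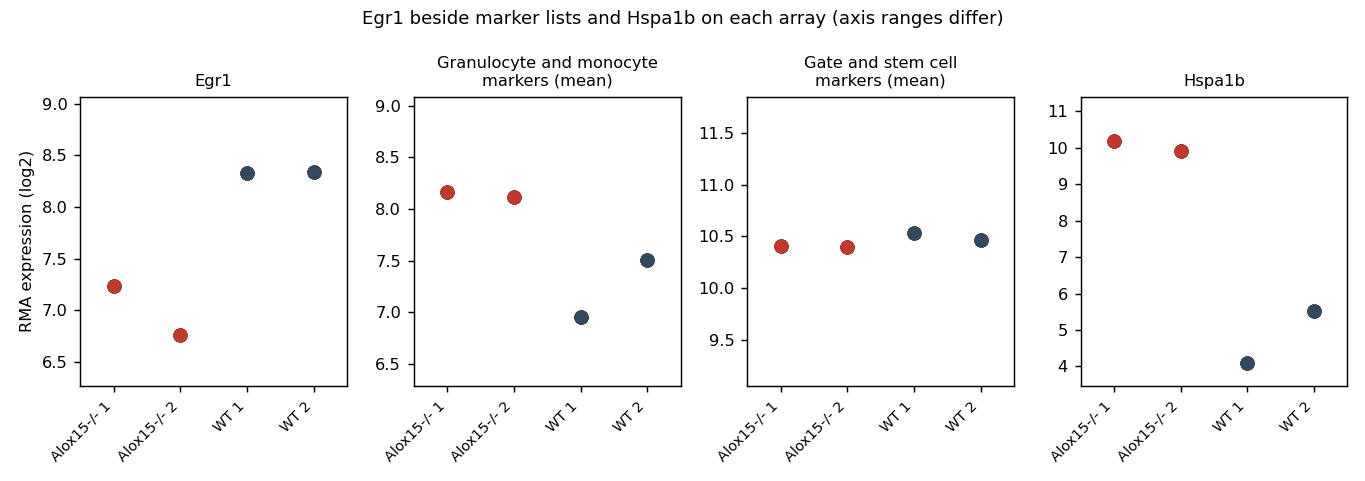
Egr1, the mean of the 15 granulocyte and monocyte markers, the mean of the 10 gate and stem cell markers, and Hspa1b on each array (log2, vertical axes with differing ranges), with the arrays labelled Alox15-/- in red and the WT arrays in dark blue. The WT arrays coincide for Egr1 at 8.33 and 8.34 and lie apart for the granulocyte and monocyte mean and for Hspa1b. The arrays labelled Alox15-/- lie apart for Egr1 and close together for the granulocyte and monocyte mean.

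Likeness to Egr1 was measured as the Euclidean distance between log2 values over the 4 arrays, each gene centred on its own mean, among 13377 genes above background on average. The nearest was Fam184a at 0.19, followed by Arhgef26 at 0.22, Wfdc17 at 0.36, Prox2 at 0.38 and Plekhg1 at 0.38. Fam184a read 6.40 and 6.14 on the arrays labelled Alox15-/-, against 7.59 and 7.47 on the WT arrays. Arhgef26 was under the background level on the arrays labelled Alox15-/-, and Plekhg1 was on Alox15-/- replicate 2. On their other probe sets Prox2 gave 0.13, Plekhg1 -0.11 and Fam184a -0.68 and -0.38. Of the members, Fos was the nearest to Egr1 at 1.02, with 611 genes closer. Jun followed at 1.17 and Jund at 1.19, with 1725 and 1852 genes closer.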

How the data were processed

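The deposited table holds log2 values for 45101 probe sets on 4 arrays. The submitters' processing notes name Affymetrix Expression Console 1.1 and RMA, a method that corrects background, quantile-normalizes and summarises each probe set. Each array takes 1195 to 1228 distinct values, so small differences are coarse. With 2 arrays a group, precision is limited by their number. The labels' protocols name a whole-transcript, random-primed labelling kit, while the probe sets are of an array design read near the transcript's end. Which labelling was hybridised is unsettled. No genome build was used for the expression values.

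The platform annotation gave 34945 probe sets 1 gene symbol, 932 several and 9211 none. The 64 Affymetrix controls, 13 of them with a symbol, were left out. One probe set per gene was tested, the one with the highest mean, with no filter on dim genes. The arrays labelled Alox15-/- were compared with WT by limma 3.58.1 in R 4.3.3 (lmFit, eBayes, two-sided) with Benjamini-Hochberg adjustment over 18193 genes and a threshold of 0.05. The code was tested on simulated data. A level was called above background when it exceeded the highest of 27 Bacillus subtilis controls on that array. The members and lists were chosen with earlier results of these data known.

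Named genes were all members, Alox15, up to 4 genes per list with the largest difference among those without overlap and above background (lists under 10 genes may be named in full), and the 5 nearest Egr1. Bmi1, Hspa8, Dnajb1 and Hspa5, and the markers named for single cell types, were given beside these and were chosen after their values were seen. Alternatives covered normalization, filters, probe set choice, variance moderation, array weights, a replicate block and leaving out each array. Figures were drawn with matplotlib 3.10.9.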

Additional observations from a re-analysis of the deposited data

How the results depend on the processing

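With all arrays kept, Egr1 stayed short of the adjusted threshold under 12 alternatives, at -1.36 to -1.34 (limma adjusted p 0.113 to 0.744). Only the alternatives of normalization could move its difference, since Egr1 has 1 probe set and the others change its p alone. Without 1 array the Egr1 difference ran from -1.57 to -1.10. Its direction could not change there, because the groups do not overlap. No alternative brought a member past the threshold. Over all genes the count of 1 became 22 with a mean-dependent prior variance, 3 with the most variable probe set, 2 with every probe set, 0 with an ordinary t (1203 at an unadjusted p under 0.05) and 0 without any 1 array (885 to 1583), where a lone array is assumed to vary like the other group. The members' median was -0.17 without the lowest 30 or 50 percent of genes, which dropped the dim members, and -0.18 to 0.035 without 1 array. With the mean of all probe sets Fosl2 was -0.48, Jun 0.13 and Jund 0.013, and with the most variable one -1.04, 0.43 and 0.20, since their probe sets disagree. Without 1 array Atf3 ran from -0.20 to 0.305, Egr2 from -0.32 to 0.18, Egr3 from -0.021 to 0.11, Fos from -0.72 to 0.021, Fosb from -0.25 to 0.51, Fosl2 from -0.024 to 0.19 and Jun from -0.39 to 0.049, all changing sign. Same-numbered replicates did not deviate together (r = -0.02 over genes). With the replicate number as a block, Egr1 was -1.34 (limma adjusted p = 0.314) and 1 gene passed. A 95th percentile of the controls as background left the same 7 members above it.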
